A study of Mus musculus with 16 samples.

Results

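Tlr1, Tlr4, Tlr7 and Tlr13 are the 4 Toll-like receptor genes in a deposited table of 831 genes, and they were taken from it by gene symbol. The table holds RNA sequencing of whole tibialis anterior, a fast limb muscle, from mice at postnatal day 30. Its 16 libraries form 4 groups of 4. Control is labelled wild type, miR-133b-/- lacks the microRNA miR-133b, mdx is labelled mdx-/-, and mdx/miR-133b-/- carries both changes. The mdx allele is a mutation of Dmd, the dystrophin gene, and mdx mice are a model of Duchenne muscular dystrophy. The labels give neither the sex of the mice nor whether each library is from its own animal. A p-value here therefore speaks of the spread among libraries, part of which may be technical.

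Toll-like receptors are membrane proteins that bind microbial products and products of damaged host cells, and that signal through adaptors such as MyD88 to NF-kB and interferon regulatory factors. Some sit on the cell surface, and others reach endosomes with the chaperone Unc93b1 and are cut there by proteases before they can signal. In muscle they are carried largely by macrophages and other leukocytes, and some are also found on fibres and stromal cells.

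Tlr1 is a surface receptor that pairs with Tlr2 on bacterial lipopeptides. Its gene (ENSMUSG00000044827) lies at chr5:64924679-64933563 on the minus strand of GRCm38. Tlr4, the surface receptor for lipopolysaccharide and for several matrix fragments, is ENSMUSG00000039005 at chr4:66827584-66930284 on the plus strand. Tlr7, an endosomal receptor for single-stranded RNA, is ENSMUSG00000044583 at chrX:167304929-167330558 on the minus strand. Tlr13, an endosomal receptor for bacterial ribosomal RNA that mice have and humans lack, is ENSMUSG00000033777 at chrX:106143204-106160493 on the plus strand. No annotated gene overlaps any of the 4, and the nearest protein-coding gene to Tlr1 is Tlr6, 18468 bases away. Tlr1 and Tlr6 resemble each other closely: of the 3332 words of 50 bases in Tlr1 transcripts, 454 also occur in Tlr6. In all 512 words (15.37%) occur in some other gene, 158 genes being involved. Reads from those stretches cannot be assigned to 1 gene from sequence alone, so the Tlr1 values carry that uncertainty. Words shared with any other gene numbered 1 of 5551 for Tlr4 and 0 for both Tlr7 and Tlr13.

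Because 2 of the 4 groups lack miR-133b, its mature sequence from the RefSeq annotation of GRCm38.p6 (chr1:20682834-20682855, plus strand) is shown with the seed, bases 2 to 8, in capitals.
mmu-miR-133b-3p: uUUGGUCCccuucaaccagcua
The DNA letters that pair with this seed are GGACCAA, and those for bases 2 to 7 are GACCAA. Neither word occurs on the sense strand of any of the 8 annotated 3' UTRs of the 4 receptors, which run from 122 bases in a Tlr7 transcript to 1321 bases in a Tlr4 transcript. Among the 780 genes of the table with an annotated 3' UTR, 11.41% hold the longer word and 31.67% the shorter one. Absence of these letters says nothing of sites of other kinds.

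RefSeq promoter windows, from 250 bases before to 50 after the annotated start, were matched for Tlr1 and Tlr13. The stretches upstream of the gene bodies are shown because both hold GAGGAA, the core recognised by Spi1 (PU.1), a transcription factor of macrophages. It is in capitals, and each stretch reads 5' to 3' on the strand of its gene: chr5:64933564-64933808, minus strand, for Tlr1, and chrX:106143025-106143203, plus strand, for Tlr13, both in GRCm38.p6.
Tlr1: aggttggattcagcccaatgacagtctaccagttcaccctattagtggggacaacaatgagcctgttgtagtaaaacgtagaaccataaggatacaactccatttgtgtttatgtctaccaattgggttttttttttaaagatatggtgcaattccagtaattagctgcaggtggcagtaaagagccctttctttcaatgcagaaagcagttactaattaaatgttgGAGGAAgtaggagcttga
Tlr13: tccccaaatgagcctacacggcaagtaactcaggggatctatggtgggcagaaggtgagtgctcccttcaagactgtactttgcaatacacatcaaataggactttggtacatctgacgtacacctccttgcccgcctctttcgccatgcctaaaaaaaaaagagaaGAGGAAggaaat
The word stands at -23 to -18 from the RefSeq start of Tlr1 and at -83 to -78 from that of Tlr13. GAGGAA on either strand is found in 28.28% of 32851 RefSeq promoter windows, so its presence in both is a description of the sequence only. A second annotated Tlr1 window (chr5:64932650-64932949) holds none. TTGCNNAA, the core of C/EBP sites, is in 10.8% of windows on either strand, and occurs once in the Tlr13 window, on the antisense strand. GAAANNGAA, the interferon regulatory factor core, is in 8.56% of windows, and the kB motif of NF-kB is in 8.46%. Neither occurs in the windows of these receptors.

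Values are scaled reads, that is, whole reads multiplied by 1 factor per library, and reads in the listed genes ran from 2356990 to 6000033 per library. The total depth is unknown. The 831 genes are a selected list: in each one the mdx/miR-133b-/- and miR-133b-/- means differ by at least 1.717-fold, either way. That contrast is given below without a test, and the others that use either group share its libraries. For 14 of the 16 libraries the description field carries the code of another sample; groups follow the titles. Neither Dmd nor the miR-133b locus was analysed here, so the labels could not be checked on the targeted genes. Listed fibre genes and markers of regenerating fibres differed between the titled groups. The list itself rests on a difference between titled groups, so this is no check of the labels. For the 5 listed fibre genes (Ckm, Myh4, Actn3, Pvalb and Mb) the summed level was 600693 to 741208 scaled reads in Control and 321305 to 736481 in miR-133b-/- libraries. It was 380915 to 556720 in mdx libraries and 258447 to 323576 with both changes. limma called 2 of the 5 lower in mdx than in Control, beside 21.7% of all listed genes. It called 4 of 5 lower in mdx/miR-133b-/- than in mdx, beside 12%, and 5 of 5 lower in mdx/miR-133b-/- than in Control, beside 36.9%. The part of these fibre gene differences in the values below was not tested. For 6 markers of regenerating fibres, embryonic myosin Myh3 among them, the summed level was 107.4 to 304.5 without the mdx allele and 809.1 to 7465 with it.

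All 4 receptors rose in mdx muscle against Control, with ratios of the group means of 6.40 for Tlr1, 6.16 for Tlr7, 5.11 for Tlr13 and 1.60 for Tlr4. The Tlr4 call was lost in 7 of 18 alternative fits on the titled groups, and the Tlr7 call in 1 of 17. In muscle with intact dystrophin, Tlr4 was the most abundant of the 4 per length. None of the 4 passed the test between miR-133b-/- and Control, nor between mdx/miR-133b-/- and mdx. The mdx/miR-133b-/- libraries had the largest SD of scaled reads for each receptor, and for Tlr7 and Tlr13 they reached from the Control range to above all mdx libraries.

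**Figure D1:**
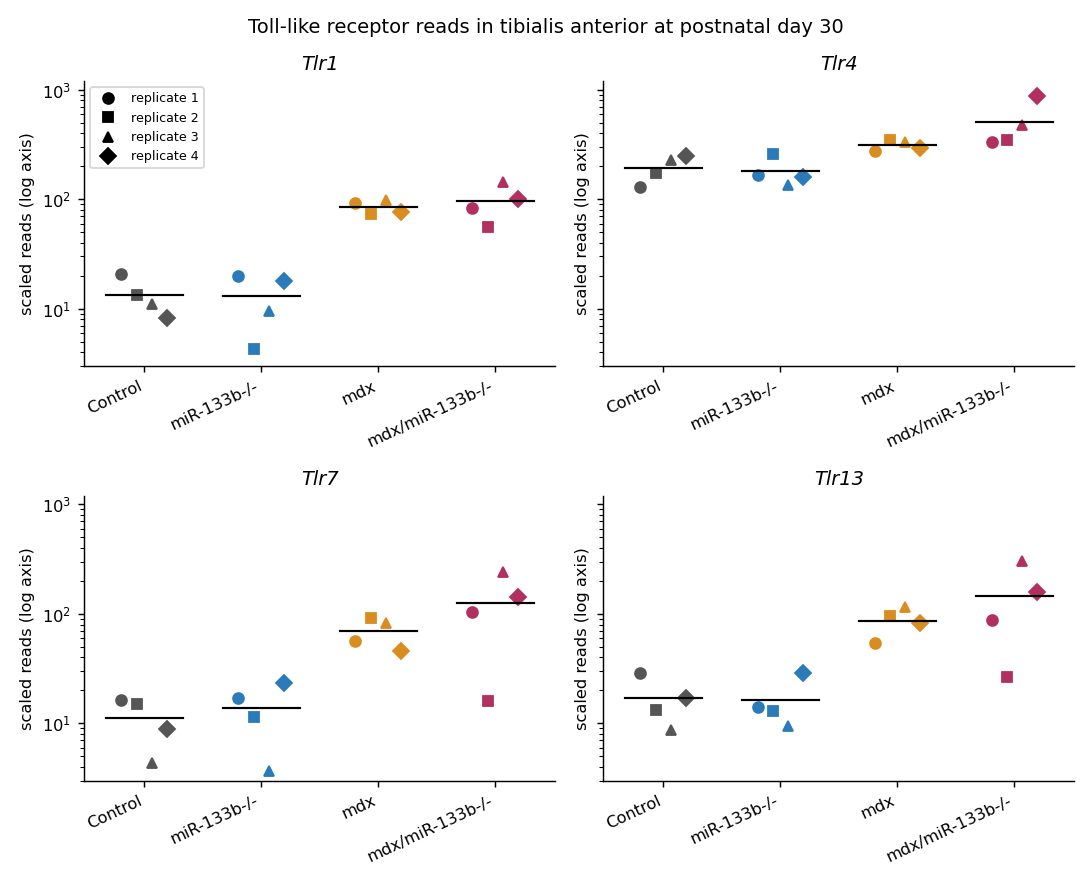
Scaled reads of each receptor (log axis) in the 16 libraries by genotype; each point is 1 library, the shape gives its replicate number and the bar is the mean of 4. For each receptor the 4 mdx libraries lie above the 4 Control libraries, and mdx/miR-133b-/- replicate 2 lies at 15.9 for Tlr7 and 26.5 for Tlr13.

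Of the surface receptors, Tlr1 stood at 20.7, 13.3, 10.97 and 8.21 scaled reads in Control replicates 1 to 4 and at 91.8, 73.4, 99.3 and 75.8 in the mdx libraries. The groups do not overlap, and no mdx library comes near the Control range. The Control mean was 13.3 ± 5.37 and the mdx mean 85.1 ± 12.5 (SD, n = 4 each). On the log2(scaled reads + 1) scale Tlr1 rose by 2.65 (SE 0.45, limma adjusted p = 0.000127). This is the smallest adjusted p of the 4 receptors in this comparison. The pseudocount of 1 understates changes of genes with few reads, and Tlr1 rested on 11 to 29 whole reads in Control.

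Tlr4 had 129, 173, 227 and 249 scaled reads in Control and 273, 351, 330 and 292 in mdx. The highest Control library is close to the lowest mdx library, although the groups do not overlap. Means were 195 ± 54.4 and 312 ± 35.1 (SD, n = 4 each), a rise of 0.71 on the log2 scale (SE 0.28, limma adjusted p = 0.0332). The Tlr4 call was lost when factors were recomputed on the listed genes by relative log expression, a median-ratio method, which gave 0.36 (limma adjusted p = 0.268). It was also lost with upper quartile factors, with a GC and length correction, and without any 1 of Control 1, Control 2, mdx 2 or mdx 3, with differences of 0.53 to 0.69 and limma adjusted p of 0.0557 to 0.124.

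Of the endosomal receptors, Tlr7 had 16.4, 15.2, 4.39 and 8.96 scaled reads in Control and 56.1, 92.4, 82.2 and 46.0 in mdx. The groups are well separated, although Control replicate 3 rests on 6 whole reads. Means were 11.2 ± 5.61 and 69.2 ± 21.7 (SD, n = 4 each), and Tlr7 rose by 2.61 on the log2 scale (SE 0.68, limma adjusted p = 0.00309). With limma-voom on the whole reads the difference was 2.66 and the call was lost (adjusted p = 0.0699).

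Tlr13 had 28.6, 13.3, 8.77 and 17.2 scaled reads in Control and 53.9, 95.4, 115 and 82.0 in mdx. Again no mdx library reaches down to the Control range. Means were 16.9 ± 8.48 and 86.7 ± 25.8 (SD, n = 4 each), and Tlr13 rose by 2.35 on the log2 scale (SE 0.57, limma adjusted p = 0.00194).

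limma thus called 4 of 4 receptors higher in mdx than in Control, and 44.5% of the 831 genes higher and 21.7% lower. The count is a description and no support, since the lowest mean of a listed gene over the 16 libraries is 50.06. Those of Tlr1, Tlr7 and Tlr13 are 51.9, 54.9 and 66.2, and their means in Control and miR-133b-/- muscle lie between 11.2 and 16.9. These 3 receptors reach such a mean only through the groups with the mdx allele, and Tlr4 (298) does so in every group. The same holds for other listed genes that are low without the mdx allele. All 4 had groups that do not overlap with mdx above, as did 46.2% of the listed genes. The median difference over all listed genes was 0.44 on the log2 scale. With relative log expression factors the median of all genes moved to 0.09, and the share of calls that were higher moved from 67.3% to 49.1%, while all 4 receptors kept a positive difference. In bulk muscle, more cells of a type and more RNA per cell cannot be told apart.

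In miR-133b-/- muscle none of the 4 receptors differed from Control beyond the spread between libraries. Tlr1 had 20.0, 4.28, 9.56 and 18.0 scaled reads, and Tlr4 had 167, 258, 136 and 160. Tlr7 had 17.0, 11.4, 3.68 and 23.2, and Tlr13 had 14.0, 12.9, 9.56 and 28.9. The ranges overlap those of Control for every receptor. Differences on the log2 scale were -0.15 for Tlr1 (95% confidence interval -1.10 to 0.79), -0.11 for Tlr4 (-0.70 to 0.49), 0.19 for Tlr7 (-1.23 to 1.60) and -0.05 for Tlr13 (-1.24 to 1.15). The intervals for Tlr7 and Tlr13 take in 2-fold differences in both directions. With limma, 0 of the 4 receptors and 0 of 831 genes (0%) passed, 84 genes having an unadjusted p under 0.05. The voom fit also called 0 genes.

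**Figure D2:**
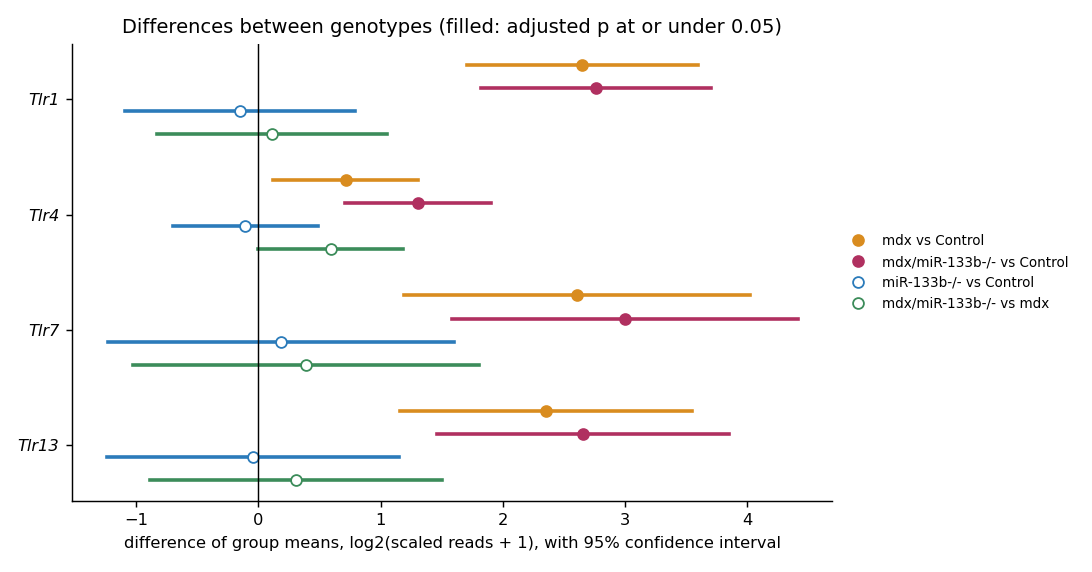
Differences of group means in log2(scaled reads + 1), on the horizontal axis, for each receptor in 4 comparisons; bars are 95% confidence intervals and filled points passed at an adjusted p of 0.05. The differences of mdx and of mdx/miR-133b-/- from Control are filled for all 4 receptors, and every other point is open.

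The mdx/miR-133b-/- libraries varied more than those of mdx for all 4 receptors, by SD of scaled reads. For Tlr1 the miR-133b-/- libraries varied more on a relative scale, the highest being 4.67 times the lowest. Tlr1 had 83.9, 56.3, 143 and 101 scaled reads in replicates 1 to 4, and Tlr4 had 330, 350, 474 and 870. The endosomal pair varied most, with 104, 15.9, 240 and 143 for Tlr7 and 87.1, 26.5, 307 and 159 for Tlr13. Replicate 2 is the lowest library for Tlr1, Tlr7 and Tlr13, and replicate 3 the highest. For Tlr4 the order differs: replicate 4 is the highest and replicate 2 lies with replicate 1. The highest library was 15.1 times the lowest for Tlr7, 11.6 times for Tlr13, 2.64 times for Tlr4 and 2.53 times for Tlr1.

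Between mdx/miR-133b-/- and mdx, means were 96.1 ± 36.2 and 85.1 ± 12.5 for Tlr1, and 506 ± 251 and 312 ± 35.1 for Tlr4 (SD, n = 4 each). They were 126 ± 92.8 and 69.2 ± 21.7 for Tlr7, and 145 ± 121 and 86.7 ± 25.8 for Tlr13. Every receptor had the higher mean with both changes, and the ranges overlap in each case. Differences on the log2 scale were 0.11 for Tlr1 (95% confidence interval -0.83 to 1.05; limma adjusted p = 0.91) and 0.59 for Tlr4 (-0.00 to 1.18; 0.16). They were 0.39 for Tlr7 (-1.03 to 1.80; 0.743) and 0.31 for Tlr13 (-0.89 to 1.5; 0.763). None passed, where limma called 7.46% of listed genes higher and 12% lower. The values turned on single libraries of the group with both changes. Without replicate 2 the difference was 1.18 for Tlr7 and 0.95 for Tlr13, without replicate 3 it was -0.09 and -0.21, and in neither case did either receptor pass. For Tlr4 it was 0.29 without replicate 4.

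Against Control, mdx/miR-133b-/- muscle had higher levels of all 4 receptors. The difference on the log2 scale was 2.76 for Tlr1 (SE 0.45, limma adjusted p = 4.9e-05) and 1.30 for Tlr4 (SE 0.28, 0.000462). For Tlr7 it was 2.996 (SE 0.68, 0.000615) and for Tlr13 2.66 (SE 0.57, 0.000421). limma called 54.3% of listed genes higher and 36.9% lower in this comparison. Tlr1 and Tlr4 had groups that do not overlap, as did 44.9% of listed genes with this group above Control. Tlr7 and Tlr13 overlap with Control through replicate 2 of mdx/miR-133b-/-, without which their differences were 3.79 and 3.30. This comparison and that of mdx with Control share the 4 Control libraries. The list was selected on the difference of these mdx/miR-133b-/- libraries from miR-133b-/-. Between miR-133b-/- and Control 0 genes passed with limma. The 4 calls against Control are thus descriptions and no support.

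Against miR-133b-/-, the contrast on which the list was selected, mdx/miR-133b-/- was higher by 2.91 on the log2 scale for Tlr1, 1.41 for Tlr4, 2.81 for Tlr7 and 2.71 for Tlr13. The interaction asks whether the mdx/miR-133b-/- to mdx difference departs from the miR-133b-/- to Control difference. It was 0.26 for Tlr1, 0.70 for Tlr4, 0.20 for Tlr7 and 0.35 for Tlr13, with limma adjusted p of 0.856, 0.325, 0.924 and 0.845. None of the 4 passed, where 0.963% of listed genes did.

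Per kilobase of merged exon, Tlr4 was the most abundant receptor in every group. Control means were 35.0 scaled reads per kilobase for Tlr4, 3.97 for Tlr1, 3.94 for Tlr13 and 2.75 for Tlr7. The 3 less abundant receptors overlap one another in Control, and Tlr4 lies above them in each Control library. In miR-133b-/- muscle the means were 32.4 for Tlr4, 3.87 for Tlr1, 3.79 for Tlr13 and 3.39 for Tlr7. In mdx muscle the means were 56.1 for Tlr4, 25.4 for Tlr1, 20.1 for Tlr13 and 16.9 for Tlr7. With both changes the means were 91.1 for Tlr4, 33.7 for Tlr13, 30.7 for Tlr7 and 28.7 for Tlr1, the last 3 overlapping widely. By genotype, each receptor runs from Control and miR-133b-/-, which do not differ beyond their spread, to mdx and then mdx/miR-133b-/-, which also overlap.

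Macrophage genes were higher in mdx than in Control muscle, as the receptors were. Of 21 monocyte and macrophage genes, 13 are listed, among them Adgre1 (F4/80), Csf1r, the C1q chains, Mrc1 and Lyz2. Of these 13, limma called 12 higher in mdx than in Control and 0 lower, beside 44.5% and 21.7% of all listed genes, with a median difference of 2.485 on the log2 scale. The count is a description and no support, since these 13 are the ones that entered a list selected on a contrast across the mdx allele. Between mdx/miR-133b-/- and mdx limma called 0 of the 13 either way, beside 7.46% of listed genes higher and 12% lower. The median there was -0.16 for the macrophage genes and 0.35 for the 4 receptors. The summed level of the macrophage genes ran from 1564 to 2461 scaled reads over the Control libraries and from 1064 to 2907 over those of miR-133b-/-. It ran from 7453 to 11393 over the mdx libraries and from 4258 to 15372 with both changes. Their mean log2 level was 7.41 in mdx/miR-133b-/- replicate 2, the lowest of that group, where Tlr7 and Tlr13 were also lowest. For other cell types few markers are listed: 0 of 8 neutrophil and 0 of 8 T cell genes, Ighm for B cells, Itgax for dendritic cells and Flt1 for endothelium. Itgax summed to 1.5 to 8.6 scaled reads in Control, 0.0 to 7.6 in miR-133b-/- and 81.4 to 119.3 in mdx. With a lowest listed mean of 50.06, it could be listed only through the groups with the mdx allele. Its rise is thus a description and no support. Ighm ran from 183.5 to 1230 in Control and from 101.6 to 312.3 in mdx. With both changes Ighm ran from 38.4 to 122.4, and limma called it lower than in mdx and in Control. Flt1 ran from 1687 to 2039 scaled reads in Control and from 855.8 to 1301 in mdx, and was called lower there by limma (-0.75 on the log2 scale). The 4 listed fibroblast and fibro-adipogenic genes (Pdgfra, Lum, Col3a1 and Fap) were each called higher in mdx than in Control by limma, where 44.5% of listed genes were. How far any of these cell types accounts for the receptor values was not tested.

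Set against the mean log2 level of the 13 macrophage genes in the same library, 3 receptors had overlapping values in the 4 genotypes. For Tlr1 the log2 difference was -2.26 ± 0.21 in Control muscle, -2.24 ± 0.73 without miR-133b, -2.10 ± 0.24 in mdx muscle and -1.88 ± 0.42 with both changes (SD, n = 4 each). Tlr13 stood at -1.97 ± 0.47, -1.85 ± 0.11, -2.11 ± 0.31 and -1.70 ± 0.98 in the same order. Tlr7 stood at -2.55 ± 0.53, -2.19 ± 0.66, -2.44 ± 0.29 and -1.94 ± 1.06. The groups overlap for these 3 receptors in each pair of genotypes. Tlr4 behaved otherwise, with 0.53 to 2.24 in Control and 0.67 to 2.47 in miR-133b-/- against -0.48 to -0.09 in mdx. All 4 mdx libraries lie below all 8 libraries without the mdx allele. With both changes Tlr4 ranged from -0.54 to 1.39, and replicates 2 and 4, at 1.05 and 1.39, lie within the Control range. In mdx muscle Tlr4 thus rose by less than the macrophage genes did, by 0.71 against a median of 2.485 on the log2 scale. The 13 genes and all 4 receptors are on a list selected on a contrast across the mdx allele. Of the receptors, only Tlr4 exceeds the lowest listed mean of 50.06 in every group. These comparisons with the macrophage genes are thus descriptions and no support.

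**Figure D3:**
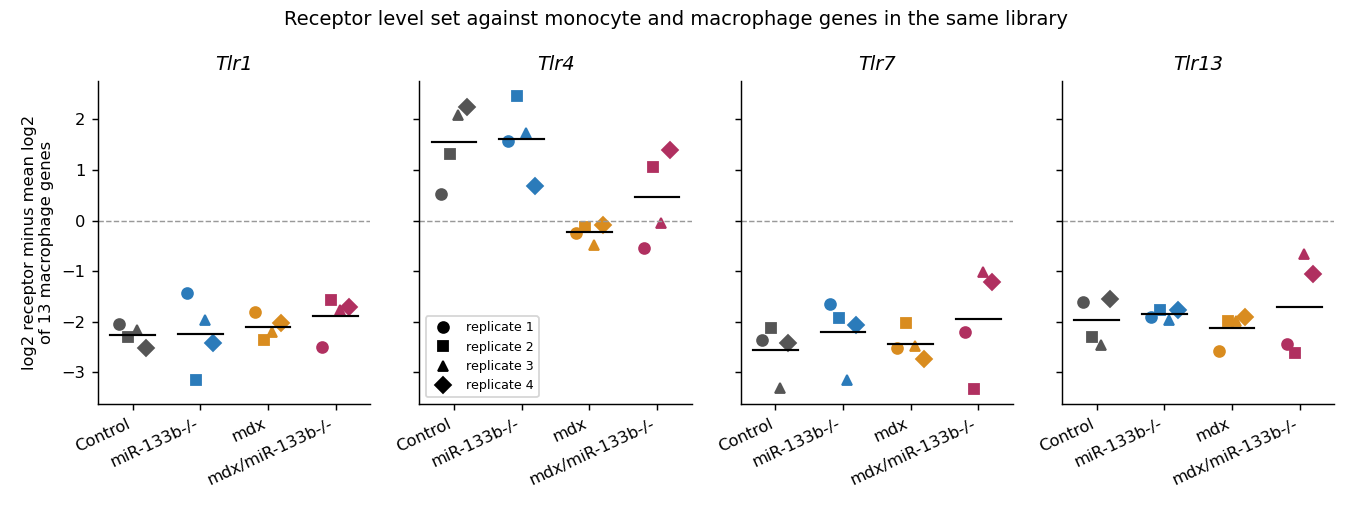
Log2 level of each receptor minus the mean log2 level of 13 macrophage genes in the same library (vertical axis), by genotype; points are libraries, shapes replicate numbers and bars means of 4. The group means of Tlr1, Tlr7 and Tlr13 lie between -2.55 and -1.70, with single libraries from -3.33 to -0.66, and that of Tlr4 drops from a mean of 1.55 in Control to -0.23 in mdx.

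The endosomal pair followed each other from library to library. Over the 16 libraries Pearson's r between the log2 levels of Tlr7 and Tlr13 was 0.97, a value that largely reflects the difference between muscle with and without the mdx allele. On deviations from the group means it was 0.90, the fifth highest among the r values of Tlr7 with the other listed genes. The mdx/miR-133b-/- libraries weigh most in that value. Their log2 SD was 1.67 for Tlr7 and 1.48 for Tlr13, against 0.46 to 1.03 in the other groups. The ratio of Tlr13 to Tlr7 scaled reads lay between 0.82 and 2.60 in all 16 libraries, while Tlr7 ran from 3.68 to 240 scaled reads and Tlr13 from 8.77 to 307. On deviations Tlr1 gave 0.61 with Tlr7 and 0.60 with Tlr13, and Tlr4 gave 0.23 with both. Between Tlr1 and Tlr4 r was -0.29. These r values are descriptions over points that share a library and its scaling factor.

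**Figure D4:**
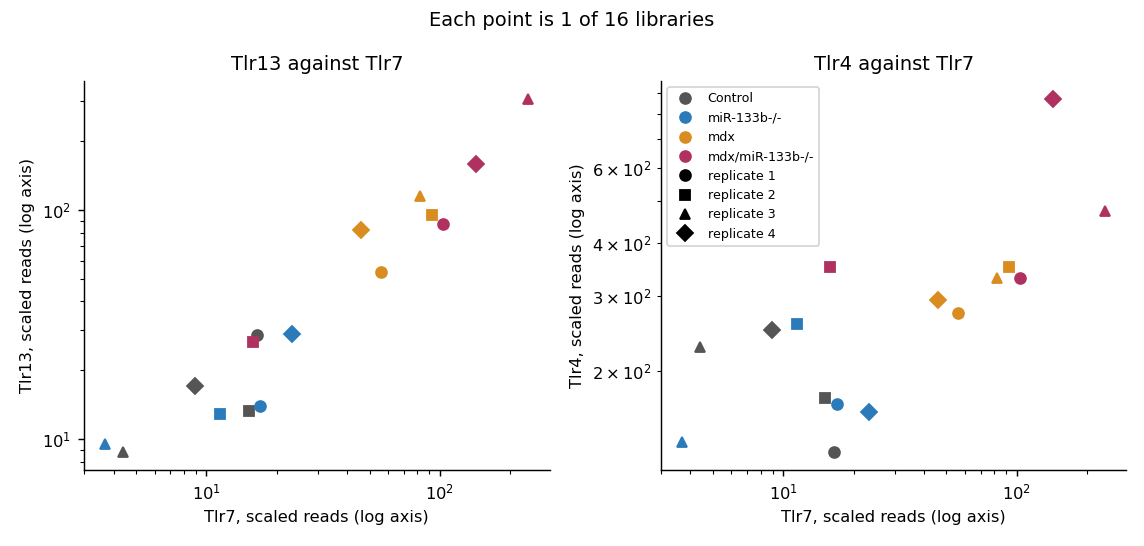
Scaled reads of Tlr13 (left) and Tlr4 (right) against those of Tlr7, all on log axes; each point is 1 of 16 libraries, coloured by genotype. Tlr13 follows Tlr7 along the whole range, with a ratio of 0.82 to 2.60, while Tlr4 is spread widely at a given Tlr7 level.

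Among all listed genes, those whose levels ran most like each receptor were sought by Pearson's r over the 16 libraries. For Tlr1 they were the macrophage genes Adgre1 (0.97) and Ms4a7 (0.97), then Slc37a2 (0.97). For Tlr7 they were Otulinl (0.97), Tlr13 (0.97) and the lysozyme gene Lyz2 (0.96). For Tlr13 they were Plek (0.97), a pleckstrin of blood cells, Tlr7 (0.97) and Tmem106a (0.96). Tlr4 had other partners: Cd44 (0.97), the hyaluronan receptor, Zfp697 (0.96) and the collagen receptor Ddr2 (0.96). These r values take in the difference between muscle with and without the mdx allele, across which the list was selected. On deviations from group means the first gene was Gstm1 for Tlr1 (0.90), Cd44 for Tlr4 (0.93), Otulinl for Tlr7 (0.96) and Tmem106a for Tlr13 (0.95). Next for Tlr1 came Lair1 (0.87) and Dbp (0.86), and neither they nor Gstm1 are on the macrophage list. Next for Tlr7 came Lyz2 (0.91), which is on it. Cd44 thus led for Tlr4 by both measures, and Otulinl for Tlr7.

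Of 109 other genes of the Toll-like receptor pathway, 16 are listed. None of the 8 other receptors, 6 adaptors or 11 transcription factors on that list is among them, so these steps were not analysed here. Of the 16, limma called 12 higher and 0 lower in mdx than in Control, with a median of 1.29 against 0.44 over all listed genes, of which 44.5% were called higher and 21.7% lower. This count, and those of the same genes below, are descriptions and no support. The 16 are the ones that entered a list selected on a contrast across the mdx allele. Without that allele, group means of Ly86, Ccl7, Il1rl1 and Cxcl9 lie between 11.4 and 46.7, under the lowest listed mean of 50.06. In miR-133b-/- against Control 0 of the 16 passed. In mdx/miR-133b-/- against mdx 1 was called higher, against 7.46% of listed genes higher and 12% lower.

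Endogenous ligands come first, matrix proteins that can engage Tlr4 or Tlr2. Tnc (tenascin C) rose by 2.09 on the log2 scale (SE 0.39, limma adjusted p = 0.000277), from 201 ± 94.7 to 813 ± 270 scaled reads. Bgn (biglycan) rose by 1.29, Fn1 (fibronectin) by 1.28 and Vcan (versican) by 1.06. Thus limma called 4 of 4 listed ligands higher, beside 44.5% of all listed genes. Accessory proteins were represented by Ly86 (MD-1), the partner of the Toll-like protein Cd180, which rose by 2.85, and Unc93b1. Unc93b1, which carries Tlr7 and Tlr13 to endosomes, rose by 1.60 (SE 0.23, limma adjusted p = 3.71e-05), from 115 ± 32.7 to 341 ± 15.7 scaled reads. Its mdx libraries ran from 322 to 358, all above the Control range of 81.4 to 159.8.

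All 3 listed endosomal proteases were called higher in mdx than in Control by limma, beside 44.5% of all listed genes. Ctss (cathepsin S), itself on the macrophage list, rose by 3.84 on the log2 scale (SE 0.60, limma adjusted p = 6.62e-05), Ctsk by 1.58 and Lgmn (legumain) by 1.27. Of 2 listed kinases, Syk rose by 0.89 (SE 0.32, limma adjusted p = 0.0201) and Lyn differed by 0.11 (0.654). The Syk call was lost with relative log expression factors (0.53, limma adjusted p = 0.0989) and without Control 1, Control 2 or mdx 3. Of 3 targets, the chemokine Ccl7 rose by 2.54 and the interferon-induced Oas2 by 1.62, while Cxcl9 differed by 0.81 without passing (0.0773), except when Control 1 was left out (1.15, limma adjusted p = 0.0164). With limma-voom the Ccl7 call was lost (2.62, adjusted p = 0.0888). Neither listed inhibitor passed: Nfkbia, which encodes the NF-kB inhibitor IkB-alpha, differed by -0.60 (limma adjusted p = 0.0638) and the interleukin receptor gene Il1rl1 by 0.91 (0.127). Nfkbia was called lower with relative log expression factors (-0.95, limma adjusted p = 0.00889), with upper quartile factors, without Control 2 and in a fit on these 2 groups alone, where Il1rl1 also passed.

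**Figure D5:**
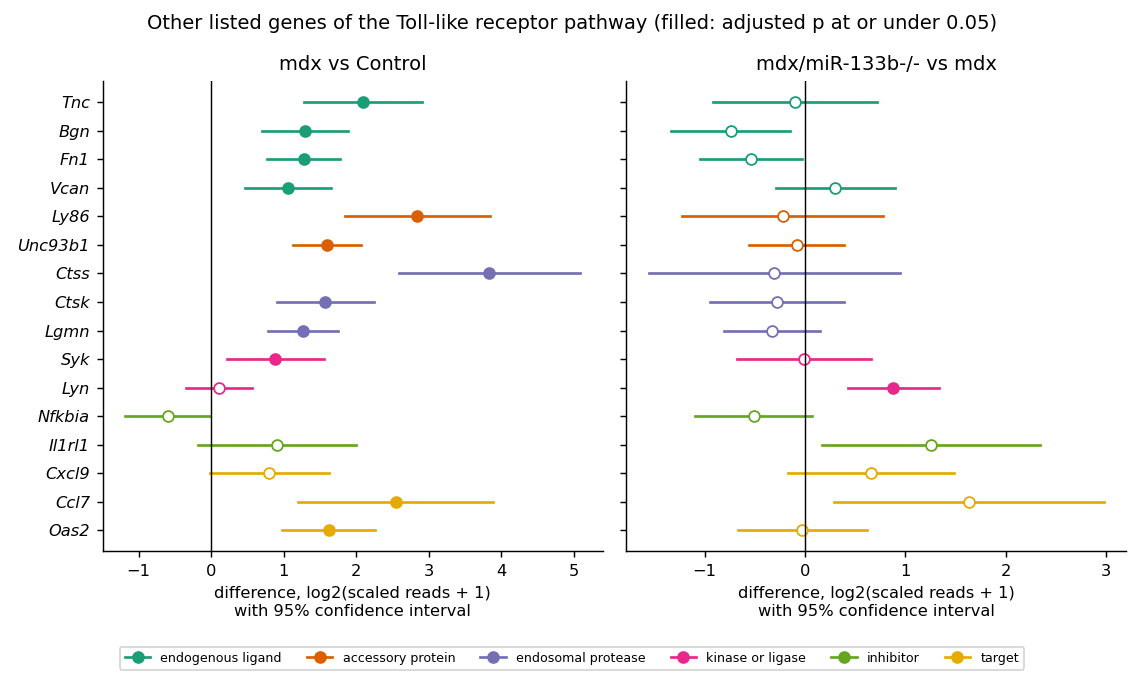
Differences in log2(scaled reads + 1) of the 16 listed pathway genes, coloured by role, for mdx against Control (left) and mdx/miR-133b-/- against mdx (right); bars are 95% confidence intervals and filled points passed at an adjusted p of 0.05. On the left 12 genes are filled, all to the right of 0, and on the right Lyn alone is filled, at 0.88.

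In mdx/miR-133b-/- against mdx the 1 pathway gene that passed was Lyn, a Src-family kinase of leukocytes that acts near these receptors. It rose by 0.88 on the log2 scale (SE 0.22, limma adjusted p = 0.013), from 476 ± 46.7 to 900 ± 249 scaled reads (SD, n = 4 each). The lowest library with both changes, at 633, lies above the highest mdx library, at 517. The call was lost without mdx/miR-133b-/- replicate 4, at 0.77. Lyn is on a list chosen by the difference of these same mdx/miR-133b-/- libraries from miR-133b-/-, where its ratio of means was 1.77. The smallest such ratio on the list is 1.717, and for mdx against Control Lyn had 1.08. The Lyn call is thus a description and no support. Against Control limma called 14 of the 16 genes higher in mdx/miR-133b-/-, beside 54.3% of listed genes higher and 36.9% lower. Bgn did not pass (0.55, limma adjusted p = 0.0712), and Nfkbia fell by 1.11 (SE 0.28, limma adjusted p = 0.00133). In the interaction 0 of the 16 passed, where 0.963% of listed genes did.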

How the data were processed

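RNA from 16 libraries was sequenced, and the submitters' processing notes name HISAT2, HTSeq and the build GRCm38. Their versions and settings, and whether strand was used, are not given in the sources at hand. The deposited table holds a signal value per gene, which the authors obtained by multiplying whole reads by 1 factor per library (0.4585 to 1), as the values show: dividing by it gave whole numbers, to within 0.001 read, for 100% of values. Groups follow the sample titles. All 831 identifiers were found in GENCODE M21, the source of symbols, lengths and coordinates. The lowest mean of a listed gene over the 16 libraries is 50.06, so genes with fewer reads are not analysed here.

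Log2(value + 1) was fitted with limma 3.58.1 in R 4.3.3, with 1 mean per group over the 16 libraries, a trend of variance on level, and no filter; p-values were adjusted by Benjamini-Hochberg over 831 genes, at 0.05. The planned count models on recovered reads were not run, because the columns did not pass a check of their low values that was required for such models. limma-voom on those reads was added after the data were seen. Alternatives covered factors, pseudocounts, filters, a replicate block, GC content and length, and libraries left out. The receptors, the pathway and cell type lists, and the rule for genes most like a receptor (the 3 highest Pearson's r) were chosen with earlier results of these data known. The rule for named genes took all listed pathway genes.

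The fit was first tested on simulated data, for mdx against Control over 831 genes. The 24 pairs of libraries within groups differed by more than sampling noise (chi-square per degree of freedom 38.43 or more). Depth over the listed genes limits the precision of low genes such as Tlr7, at 5 whole reads in its lowest library.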

Additional observations from a re-analysis of the deposited data

Results flagged for a closer look

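Groups of 4 libraries were searched for a sample far from the other 3, by Dixon's ratio at its 95% critical value. Of 96 groups 7 had one, and chance gives about 1 in 20. Tlr13 relative to the macrophage genes was -2.57 in mdx replicate 1 and -1.99 to -1.91 in the other mdx libraries. Among pathway genes, mdx/miR-133b-/- replicate 2 was low for the accessory gene Ly86, at 53.0 scaled reads against 188 to 196, and for the kinase gene Syk, at 99.4 against 211 to 219. The same library was lowest for Tlr1, Tlr7 and Tlr13. In mdx/miR-133b-/- replicate 4, which had the most Tlr4, Il1rl1 stood at 374 scaled reads against 38.5 to 70.2. In mdx/miR-133b-/- replicate 1, Fn1 stood at 2541 against 1223 to 1332. Ctss was 128 in Control replicate 1 and 20.2 to 31.0 in the other Control libraries, and Lyn was 759 in miR-133b-/- replicate 2 against 422 to 434.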

How the results depend on the processing

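Tlr1 and Tlr13 remained called higher in mdx than in Control in all alternatives fitted on the titled groups, from 2.05 to 2.88 and from 1.85 to 2.63 on the log2 scale; the Tlr4 and Tlr7 calls that were lost are given with their results. All 4 calls of mdx/miR-133b-/- against Control held likewise, and no receptor passed in the remaining tests. A minimum mean of 100 leaves only Tlr4. Fits with edgeR and DESeq2 were not run. Libraries with the same replicate number correlated weakly: of 24 same-number pairs 2 correlated over 0.1 (-0.283 to 0.254). Whether the numbers pair the libraries is not settled by this. With the replicate number as a block, 541 genes passed in mdx against Control (550 without), 0 in miR-133b-/- against Control, 120 in mdx/miR-133b-/- against mdx (162), 749 in mdx/miR-133b-/- against Control (758) and 7 in the interaction (8).

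Grouping by the description code puts 1 library of each titled genotype in every group, so genotype differences cancel by design. This grouping gave 0 calls in each comparison. Among results called on the titled groups, those of mdx against Control that changed sign under it were -0.25 for Tlr1, -0.47 for Tlr7, -0.40 for Ccl7, -0.16 for Ctsk, -0.60 for Ctss, -0.012 for Fn1, -0.42 for Ly86, -0.06 for Oas2, -0.18 for Syk and -0.082 for Unc93b1, while Tlr4 was 0.33, Tlr13 0.20, Vcan 0.20, Tnc 0.11, Lgmn 0.061 and Bgn 0.009. It also gave 0.37 for Tlr4 and -0.64 for Tlr7 in miR-133b-/- against Control, -0.10 for Tlr1 and -0.10 for Lyn in mdx/miR-133b-/- against mdx, -0.35 for Tlr1 and -0.05 for Tlr7 in mdx/miR-133b-/- against Control, and -0.10 for Tlr4 in the interaction. Removing the GC and length trend left 55 calls in mdx/miR-133b-/- against mdx and 5 in the interaction, and gave -0.018 for Tlr1 in the former and -0.037 for Tlr7 in the latter. Relative log expression factors gave 14 interaction calls, and 0.049 for Tlr4 and 0.097 for Tlr13 in miR-133b-/- against Control, where voom gave 0.085 for Tlr13. A minimum mean of 100 left 4 interaction calls. The cause of the shifts in the settings other than the description grouping was not tested.

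Leaving out 1 library, calls ran from 474 to 538 in mdx against Control, 0 to 0 in miR-133b-/- against Control and 718 to 754 in mdx/miR-133b-/- against Control. In mdx/miR-133b-/- against mdx they ran from 49 to 197, with 71, 56 and 84 without mdx 1, 3 and 4, and 70 and 49 without mdx/miR-133b-/- 3 and 4. In the interaction they ran from 7 to 110, with 110 without miR-133b-/- 2 and 15 without mdx/miR-133b-/- 1. In miR-133b-/- against Control the differences ran from -0.42 to 0.25 for Tlr1, -0.29 to 0.027 for Tlr4, -0.16 to 0.66 for Tlr7 and -0.35 to 0.23 for Tlr13. In mdx/miR-133b-/- against mdx they ran from -0.11 to 0.33 for Tlr1, -0.093 to 1.18 for Tlr7 and -0.21 to 0.95 for Tlr13, and in the interaction from -0.14 to 0.52, -0.28 to 0.998 and -0.17 to 0.996. As shares of the reads in the listed genes, the ratio of the mdx to the Control mean was 9.23 for Tlr1, 2.24 for Tlr4, 8.97 for Tlr7 and 7.54 for Tlr13, in place of 6.40, 1.60, 6.16 and 5.11; with both changes it was 12.7 for Tlr1, 4.33 for Tlr4, 19.8 for Tlr7 and 15.4 for Tlr13, in place of 7.23, 2.60, 11.2 and 8.55.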
